A study of Mus musculus with 7 samples.

Results

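The presynaptic vesicle and release machinery was followed as a set of 42 genes, named by symbol from the families that load, dock, fuse and recycle synaptic vesicles, out of 24346 genes in the expression table. All 42 were detected in every animal and all 42 were among the 12988 genes that entered the test because their mean reached 1 FPKM (fragments per kilobase of transcript, scaled to the mapped fragments of the library). Expression came from bulk RNA-seq of the whole cerebral cortex of 7 male mice, 1 library per animal. The 4 CrT−/y animals were hemizygous for a deletion of exons 5 to 7 of Slc6a8, the X-linked gene of the creatine transporter, in every cell of the body, and the 3 CrT+/y animals were wild-type littermates. Both groups were on the C57BL/6J background and were sampled at postnatal day 100 without any drug or viral treatment. The comparison asked how the lack of creatine uptake changes cortical transcript levels.

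Neurotransmitter is stored in synaptic vesicles that are tethered and primed at the active zone of the nerve terminal, fuse when SNARE proteins zip vesicle and plasma membrane together after calcium binds synaptotagmin, and are then retrieved by endocytosis and refilled. Disassembly of spent SNARE complexes and vesicle refilling consume ATP, and creatine with its phosphorylated form buffers ATP in neurons. In cortex these transcripts come mostly from excitatory and inhibitory neurons, so that in a bulk sample fewer neurons and less RNA per neuron cannot be told apart.

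Active zone scaffolds and a few vesicle-handling genes were lower in the CrT−/y cortex, whereas the fusion core was not called. Syn1, Rims1, Rims3, Bsn, Pclo, Erc1 and Sh3gl2 fell by between 11.4% and 21.8% of the CrT+/y mean, and Rab3b, a vesicle GTPase, rose by 18.4%. Thus 7 of 42 genes (16.7%) were called lower and 1 (2.38%) higher at an adjusted p-value under 0.1 (limma, Benjamini-Hochberg over all 12988 genes), while 7.25% of all tested genes were called lower and 2.90% higher. The other 34 were not called. Estimates were below 0 for 30 of 42 genes (71.4%) against 58.2% of all tested genes, and the median log2 fold change was −0.07 against −0.03. All 4 CrT−/y animals lay below all 3 CrT+/y animals for 11 of 42 genes (26.2%; 15.0% of all tested genes) and above them for 1 gene (2.38%; 6.57%). No test of the set as a whole was made.

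The sizes depended on how the libraries were scaled. The 8 called genes kept their sign in all 21 alternative settings, but only 2 or 3 were called lower after quantile normalization (4.76% of members, 4.27% of all tested genes), upper quartile scaling (4.76% and 3.56%), median centring (7.14% and 4.49%) or a correction for transcript length (4.76% and 5.10%). The members' share of lower calls was closer to that of all genes under these settings than as reported. Scaling to 12 pan-neuronal marker genes turned the direction of the set, with 0 genes called lower, 7 called higher (Syt7, Syt11, Sv2a, Synpr, Rab3a, Rab3b and Napb) and a median of 0.05. It also turned the whole table, with the median of all tested genes moving from −0.03 to 0.08 and 14.4% of them called higher and 2.33% lower, beside 16.7% and 0% of members. The share of higher genes among all calls was 28.6% as reported and ranged from 46.6% to 86.1% under those 5 alternatives. The members' median minus that of all genes was −0.03 as reported and under upper quartile, median and pan-neuronal scaling, and was −0.01 after quantile normalization and −0.02 after the length correction.

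Calls also changed when single animals were left out. A fit with 1 animal fewer has less power, so a lost call by itself does not show that a gene depended on that animal. Across these fits the log2 fold change ran from −0.20 to −0.16 for Bsn but from −0.39 to −0.19 for Syn1. Leaving out any of CrT−/y animals 0, 1 or 2, or CrT+/y animal 1, left 0 genes called in either direction by limma, while lower calls over all tested genes fell to between 0.408% and 3.47%. In these fits 9 or 10 of the 42 genes (21.4% to 23.8%) had an unadjusted p under 0.05, against 18.1% to 21.8% of all tested genes; with all animals it was 12 of 42 (28.6%) against 25.0%. Without CrT−/y animal 3 only Erc1 was called, without CrT+/y animal 2 Rims3 and Sh3gl2 were called lower, and without CrT+/y animal 3 the counts were 11 lower and 4 higher, when 18.4% and 10.3% of all tested genes were called. CrT+/y animal 1 had the highest value of all 7 animals for 16 of 42 genes (38.1%), against 28.2% of all tested genes.

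**Figure D1:**
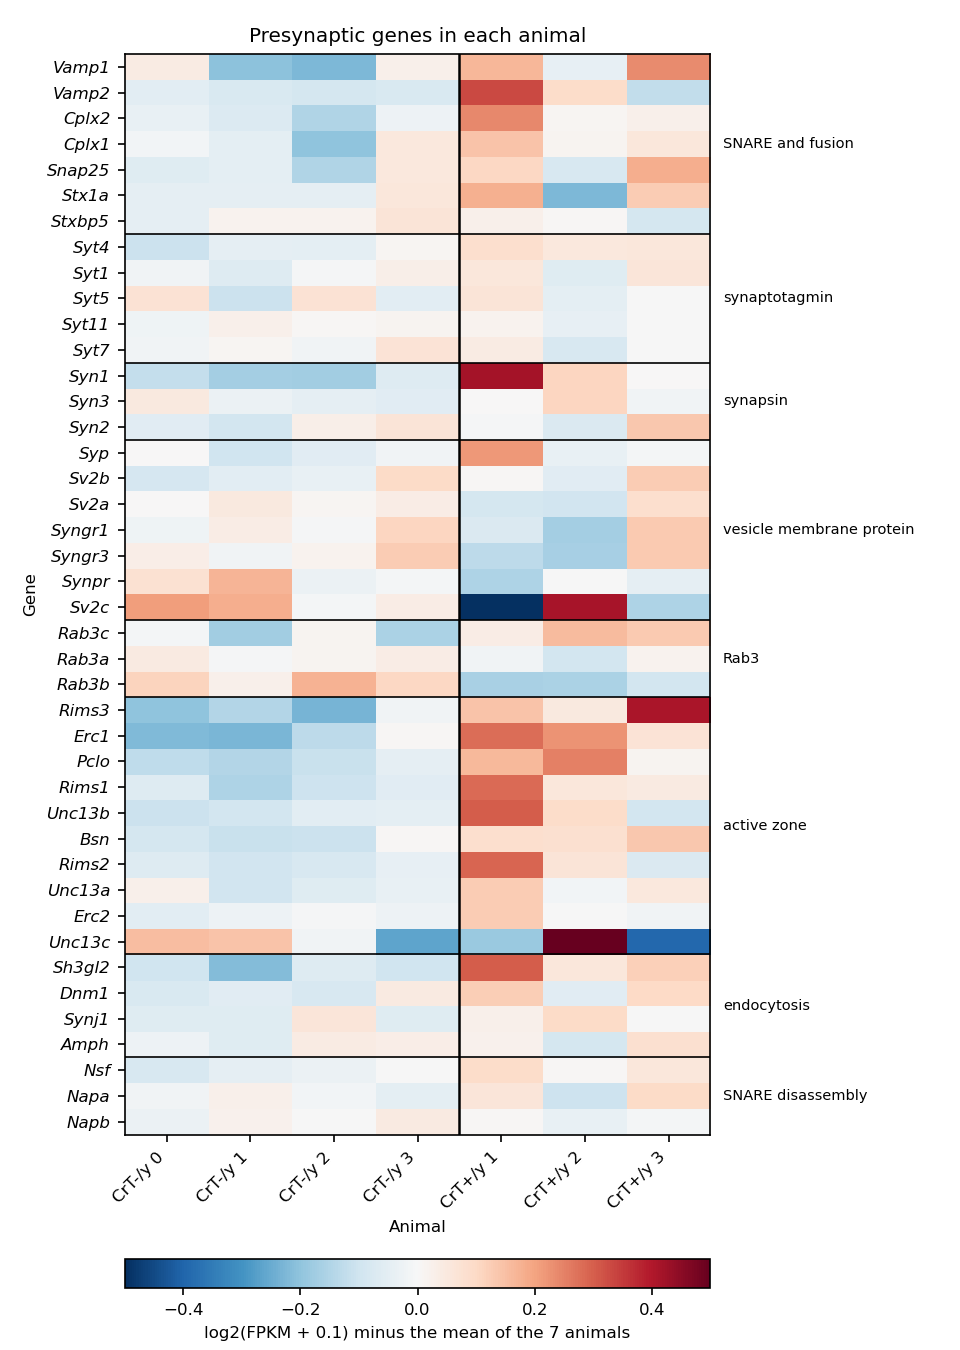
Heat map of the 42 presynaptic genes (rows, grouped by role) in the 4 CrT−/y and 3 CrT+/y animals (columns), coloured by log2(FPKM + 0.1) minus the gene's mean over the 7 animals. Most active zone rows are blue in the CrT−/y columns, the Rab3b row has the opposite colours, and the Sv2c and Unc13c rows vary most among CrT+/y animals.

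The deleted gene itself checked the labels. Slc6a8 read 12.4, 14.9, 14.7 and 15.7 FPKM with the deletion and 32.3, 29.6 and 28.0 FPKM in wild-type littermates. The groups did not overlap (log2 fold change −1.05, two-sided exact permutation p = 0.0286, the smallest that 35 splits allow), and the gene was called in all 21 alternatives. Summed FPKM lay between 382949 and 390299 in CrT−/y and between 385465 and 403414 in CrT+/y libraries, of which the 42 genes made up 2.04% to 2.14% and 2.09% to 2.23%. The read numbers that the study states are not used here. Relative sequencing depth was estimated roughly from the steps between low FPKM values. It was 0.917 to 1.25 times that of CrT−/y animal 0 in the other CrT−/y animals and 0.856 to 1.09 times in the CrT+/y animals. Only 8.33% to 21.7% of the low genes used fell in the bin that set the value, so these estimates are weak.

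Levels spanned a wide range. On the FPKM scale, which is per length, the t-SNARE Snap25 was the most abundant member with a mean of 1540 ± 88.3 (SD, n = 4) in CrT−/y and 1676 ± 154 (SD, n = 3) in CrT+/y animals, followed by Vamp2, Syp, Syt1 and Rab3a. The least abundant were Unc13c, Syn3, Sv2c and Unc13b, each at or under 11.3 FPKM in every animal. The called genes were found at both ends, from Syn1 among the 10 most abundant to Erc1 among the 5 least abundant.

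The RefSeq promoter windows (GRCm38.p6, 250 bases before to 50 after the annotated start) of 3 called genes are given because they show the range of start-site sequence among them. Entries existed for 34 of the 42 genes, giving 42 windows. Capitals mark TGACGTCA, the palindromic cyclic AMP response element, in the Syn1 window (chrX:20920869-20921168, minus strand) and the Sh3gl2 window (chr4:85205206-85205505, plus strand), and TATAAA in the Rab3b window (chr4:108878820-108879119, plus strand):
Syn1: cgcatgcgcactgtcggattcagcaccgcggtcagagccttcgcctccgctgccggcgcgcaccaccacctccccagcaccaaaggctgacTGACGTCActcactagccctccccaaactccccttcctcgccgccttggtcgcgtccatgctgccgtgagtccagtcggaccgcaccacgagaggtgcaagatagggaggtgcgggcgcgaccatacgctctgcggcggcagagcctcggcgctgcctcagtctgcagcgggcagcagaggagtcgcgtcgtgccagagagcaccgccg
Sh3gl2: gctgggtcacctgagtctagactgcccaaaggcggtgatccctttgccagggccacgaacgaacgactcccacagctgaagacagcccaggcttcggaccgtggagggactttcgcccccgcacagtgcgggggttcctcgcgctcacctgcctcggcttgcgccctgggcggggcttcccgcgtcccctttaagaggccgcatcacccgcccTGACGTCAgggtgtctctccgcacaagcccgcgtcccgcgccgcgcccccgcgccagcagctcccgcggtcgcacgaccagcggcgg
Rab3b: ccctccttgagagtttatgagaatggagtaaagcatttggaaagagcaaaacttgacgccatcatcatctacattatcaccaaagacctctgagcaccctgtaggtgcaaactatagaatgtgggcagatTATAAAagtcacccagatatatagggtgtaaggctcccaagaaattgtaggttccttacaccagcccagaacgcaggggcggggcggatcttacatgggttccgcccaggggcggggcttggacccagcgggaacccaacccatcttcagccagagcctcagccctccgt

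The element TGACGTCA began 159 bases before the start of Syn1 and 37 bases before that of Sh3gl2. Searched on both strands, it was present in 3 of the 42 windows (7.14%; Napa was the other gene) and in 1.79% of all 32851 promoters. TATAAA began 120 bases before the Rab3b start and was found in 3 of 42 windows and in 13.6% of all promoters. The GC box core GGGCGG was in 28 of 42 windows (66.7%) and in 35.7% of all promoters, CCAAT in 10 of 42 and 37.4%, and the early growth response element GCGGGGGCG, which shares the letters GGGCG with the GC box, in 5 of 42 and 2.91%. The windows had a median GC content of 62.2% with 19 CpG dinucleotides, against 52.7% and 7 over all promoters. Rab3b, the only gene called higher, had the lowest GC content of the 8 called genes, 51.7% with 8 CpG, and the other 7 ranged from 62.3% to 77.0%. Motifs and windows were picked after the expression values were known, and a match describes letters only.

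Active zone genes held most of the calls. Of 10 genes, 5 were called lower, 0 higher, and 9 had estimates below 0 (median log2 fold change −0.18). Of all tested genes, 7.25% were called lower, 2.90% higher, and 58.2% had estimates below 0. The median log2 deviation of the 10 genes from each gene's mean ran from −0.10 to −0.04 in CrT−/y and from 0.03 to 0.15 in CrT+/y animals. These ranges did not overlap. Those of all tested genes did not overlap either and were narrower, at −0.018 to −0.007 and 0.013 to 0.035. The separation by itself was therefore not particular to active zone genes. Most of these calls were lost under other scalings. Only 1 of the 10 genes was called lower after quantile, upper quartile or length settings and 2 after median centring. Of all tested genes 3.56% to 5.10% were called lower there. Estimates were below 0 for 8 or 9 of the 10 under these settings, and that share was not computed for all tested genes. With pan-neuronal scaling 7 of 10 had estimates below 0, the median log2 fold change was −0.06 and none was called.

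Bsn encodes Bassoon, a giant scaffold that organises the active zone and lies on chromosome 9. It read 59.7, 58.8, 59.0 and 63.7 FPKM in CrT−/y and 67.4, 67.1 and 69.8 FPKM in CrT+/y animals. Values were tight within both groups and did not overlap (log2 fold change −0.18 ± 0.05 SE, limma adjusted p = 0.0857). Its relative Pclo, which encodes the scaffold Piccolo, read 30.2, 29.8, 30.6 and 32.0 FPKM in CrT−/y and 36.9, 39.3 and 33.3 FPKM in CrT+/y animals. All CrT−/y values were lower, with the narrowest gap to CrT+/y animal 3 (log2 fold change −0.25 ± 0.07 SE, limma adjusted p = 0.0667).

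RIM proteins link Rab3 on the vesicle to calcium channels and to the priming factor Munc13. Rims1, which encodes RIM1, read 57.9, 54.3, 56.2 and 58.1 FPKM in CrT−/y and 73.5, 62.8 and 62.4 FPKM in CrT+/y animals. CrT+/y animal 1 stood above the other CrT+/y animals, and there was no overlap (log2 fold change −0.22 ± 0.07 SE, limma adjusted p = 0.0952; −0.14, not called, without that animal). Rims3, encoding a short RIM isoform that lacks the Rab3-binding end, read 35.7, 37.1, 34.9 and 40.5 FPKM against 45.3, 42.4 and 54.5 FPKM. Here CrT+/y animal 3 was the highest, and the estimate was the most negative of the 42 genes (log2 fold change −0.35 ± 0.09 SE, limma adjusted p = 0.064). Rims2 was not called and ranged from 25.1 to 26.1 FPKM in CrT−/y and from 25.5 to 32.9 FPKM in CrT+/y animals.

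Erc1 and Erc2 encode ELKS proteins, which bind RIM and Bassoon, and differed in their values. Erc1 read 8.50, 8.47, 9.07 and 9.97 FPKM in CrT−/y and 12.1, 11.6 and 10.4 FPKM in CrT+/y animals. The groups were separate, with CrT−/y animal 3 closest to the controls (log2 fold change −0.34 ± 0.08 SE, limma adjusted p = 0.0586). Erc2, the more abundant of the pair, ranged from 31.9 to 32.9 FPKM in CrT−/y and from 32.7 to 36.1 FPKM in CrT+/y animals and was not called. The ratio of Erc2 to Erc1 was 3.23 to 3.81 in CrT−/y and 2.82 to 3.11 in CrT+/y animals, without overlap, and was not tested.

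The Munc13 genes, whose products open syntaxin for priming, were not called. Unc13a read 66.0, 60.8, 62.3 and 63.3 FPKM in CrT−/y and 70.9, 64.4 and 67.4 FPKM in CrT+/y animals. The groups overlapped at CrT−/y animal 0 (log2 fold change −0.10 ± 0.05 SE, limma adjusted p = 0.295; the estimate turned to 0.02 with pan-neuronal scaling). Unc13b read 8.49, 8.57, 8.80 and 8.83 FPKM in CrT−/y and 11.3, 9.75 and 8.56 FPKM in CrT+/y animals, and CrT+/y animal 3 fell within the CrT−/y values (log2 fold change −0.18 ± 0.09 SE, limma adjusted p = 0.254). The Unc13b estimate was −0.08 without CrT+/y animal 1 and −0.27, called, without animal 3. Unc13c spread over 5.18 to 6.97 FPKM in CrT−/y and 4.73 to 9.22 FPKM in CrT+/y animals.

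**Figure D2:**
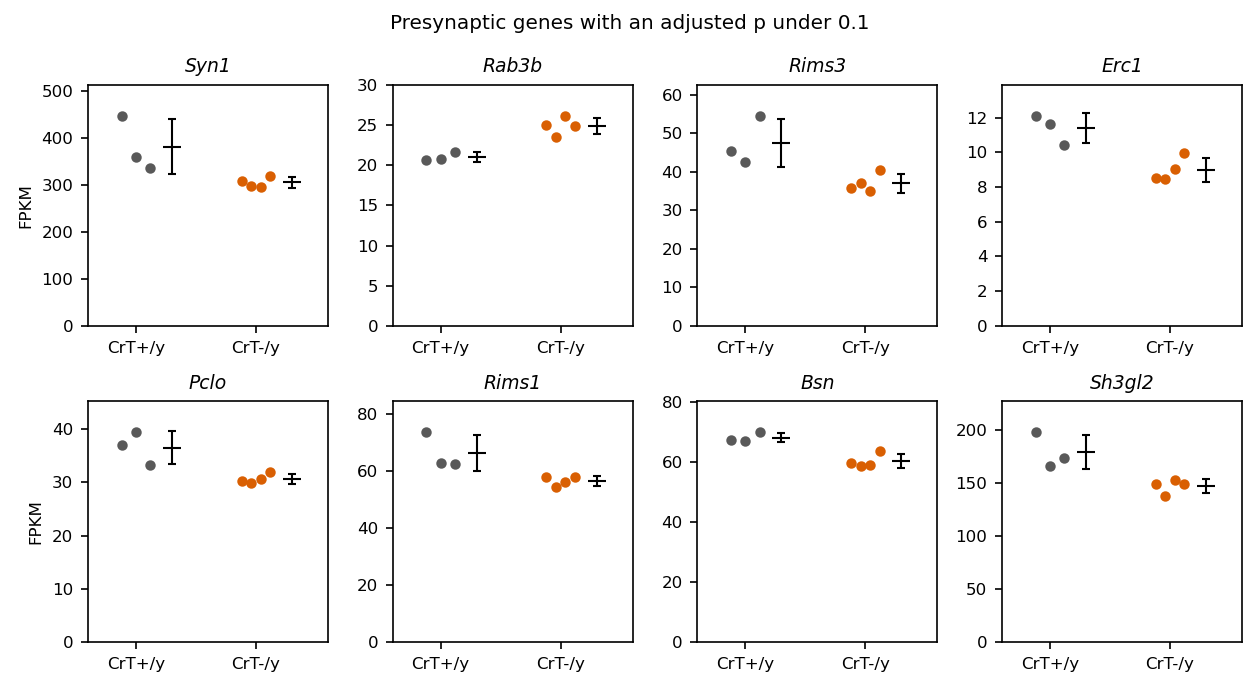
FPKM of the 8 called genes in each CrT+/y (grey, n = 3) and CrT−/y (orange, n = 4) animal, with the group mean and SD as black bars beside the points and axes starting at 0. Points of the groups do not overlap in any panel, and Rab3b is the only panel in which the CrT−/y points are the higher ones.

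Synapsins tether vesicles to each other in the reserve pool. Syn1, the X-linked member, read 308, 297, 296 and 319 FPKM in CrT−/y and 446, 360 and 335 FPKM in CrT+/y animals. CrT+/y animal 1 was far above the other CrT+/y animals, and the lowest CrT+/y value was close to the highest CrT−/y value (log2 fold change −0.31 ± 0.09 SE, limma adjusted p = 0.0939). Without CrT+/y animal 1 the estimate was −0.19 and was not called. Syn2 ranged from 159 to 177 FPKM in CrT−/y and from 161 to 186 FPKM in CrT+/y animals, and Syn3 from 7.50 to 8.08 FPKM and from 7.70 to 8.41 FPKM. Neither was called. The ratio of Syn3 to Syn1 was 0.0238 to 0.0266 in CrT−/y and 0.0177 to 0.0236 in CrT+/y animals, without overlap, whereas that of Syn2 to Syn1 overlapped.

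Among the 4 endocytosis genes, 1 was called lower and all 4 estimates were below 0; this held for 2 of 4 after quantile normalization, 3 of 4 after upper quartile, median or length settings and 1 of 4 with pan-neuronal scaling. Sh3gl2 encodes endophilin A1, which bends membrane and recruits synaptojanin to the vesicle neck. It read 149, 137, 153 and 149 FPKM in CrT−/y and 197, 166 and 174 FPKM in CrT+/y animals. All CrT−/y animals were lower (log2 fold change −0.28 ± 0.07 SE, limma adjusted p = 0.0617). Dnm1, the GTPase dynamin 1 that severs the vesicle neck, read 411, 417, 410 and 447 FPKM in CrT−/y and 473, 417 and 465 FPKM in CrT+/y animals. CrT+/y animal 2 lay among the CrT−/y values (log2 fold change −0.10 ± 0.07 SE, limma adjusted p = 0.383; 0.02 with pan-neuronal scaling). Synj1, the synaptojanin phosphatase that uncoats vesicles, ranged from 86.9 to 94.7 FPKM and from 90.7 to 97.0 FPKM, and Amph, the curvature-sensing amphiphysin, from 79.6 to 85.6 FPKM and from 78.2 to 87.9 FPKM.

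The 3 Rab3 GTPases, which mark vesicles for docking, diverged. Rab3b read 25.0, 23.6, 26.1 and 24.8 FPKM in CrT−/y and 20.6, 20.7 and 21.7 FPKM in CrT+/y animals. All 4 CrT−/y animals were above the controls (log2 fold change 0.24 ± 0.06 SE, limma adjusted p = 0.0526), and the gene was called in 13 of 21 alternatives. Rab3c read 78.4, 70.0, 79.6 and 70.8 FPKM in CrT−/y and 81.1, 88.2 and 86.4 FPKM in CrT+/y animals. Its CrT−/y values were all lower but the gene missed the threshold (log2 fold change −0.19 ± 0.06 SE, limma adjusted p = 0.119). Rab3a, the most abundant of the 3, read 455, 438, 445 and 452 FPKM in CrT−/y and 435, 414 and 445 FPKM in CrT+/y animals, which overlapped (log2 fold change 0.05 ± 0.05 SE, limma adjusted p = 0.567).

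A ratio within an animal removes a scaling factor common to its library, but not a trend with transcript length. Set against Rab3a in this way, the ratio of Rab3b was 0.0540 to 0.0589 in CrT−/y and 0.0477 to 0.0503 in CrT+/y animals. That of Rab3c was 0.157 to 0.179 in CrT−/y and 0.187 to 0.213 in CrT+/y animals. Neither pair of ranges overlapped, in opposite directions. Over 21 such ratios between related members, the groups were separate in 5 (the 4 named for Rab3, synapsin and ELKS genes, and Syt7 to Syt1, at 0.108 to 0.114 against 0.104 to 0.108) and overlapped in 16. In 1 of the 5 CrT−/y was the lower group and in 4 the higher. Taken singly, 15.0% of all tested genes were separate with CrT−/y below and 6.57% with CrT−/y above. The count of 5 of 21 is therefore not shown to exceed what single genes gave. The ratios were not recomputed after the length correction. Length-corrected log2 fold changes were 0.01 for Syt7 and 0.02 for Syt1, in place of 0.02 and −0.03. They were 0.06, 0.29 and −0.12 for Rab3a, Rab3b and Rab3c. For Syn3 and Syn1 they were −0.02 and −0.26, and for Erc2 and Erc1 0.00 and −0.27. No test was run on the ratios.

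**Figure D3:**
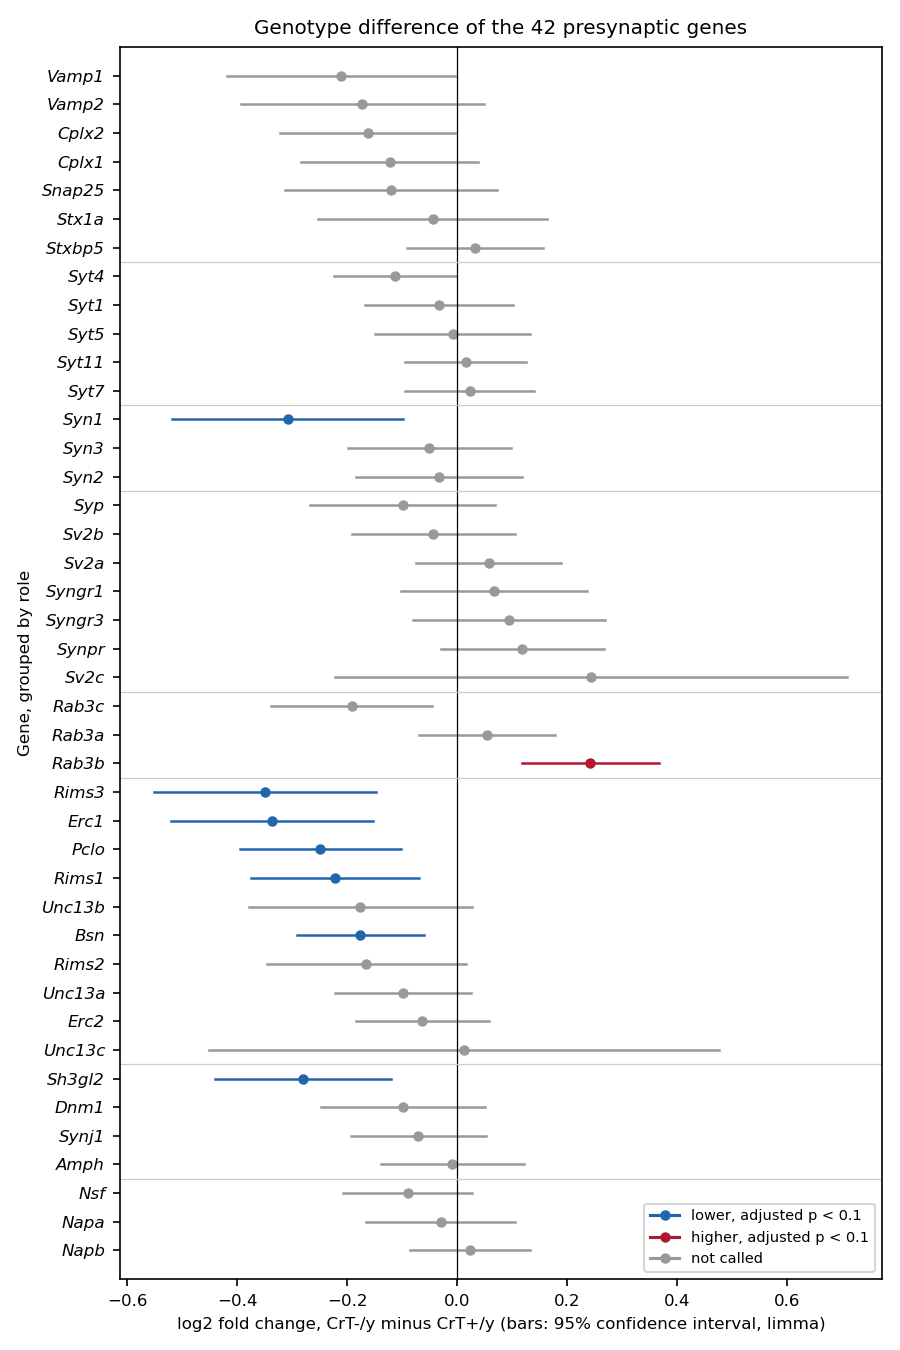
Log2 fold change (CrT−/y minus CrT+/y) of each of the 42 genes, grouped by role, with its 95% confidence interval from limma. The 7 genes called lower (blue) run from −0.35 to −0.18, Rab3b (red) is at 0.24, and the 34 grey genes were not called at an adjusted p-value under 0.1.

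SNARE and fusion genes were not called by limma in either direction (0 of 7; 2 at an unadjusted p under 0.05). Estimates were below 0 for 6 of 7 genes (median log2 fold change −0.12) and for 5 or 6 of 7 under the 5 scaling and length alternatives, where the median ran from −0.11 to −0.01. Snap25 read 1530, 1542, 1436 and 1651 FPKM in CrT−/y and 1713, 1507 and 1809 FPKM in CrT+/y animals. The groups overlapped widely (log2 fold change −0.12 ± 0.09 SE, limma adjusted p = 0.409; 0.02 after quantile normalization). Vamp2, the main vesicle SNARE of the forebrain, read 820, 806, 800 and 806 FPKM in CrT−/y and 1069, 905 and 780 FPKM in CrT+/y animals. CrT+/y animals 1 and 2 were above the tight CrT−/y values and animal 3 was just below them (log2 fold change −0.17 ± 0.10 SE, limma adjusted p = 0.301). The estimate was −0.06 without CrT+/y animal 1 and −0.28, called, without animal 3.

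Vamp1, a vesicle SNARE with a more restricted pattern, read 67.4, 56.8, 56.0 and 66.6 FPKM in CrT−/y and 73.4, 63.6 and 77.1 FPKM in CrT+/y animals. CrT+/y animal 2 fell between the CrT−/y pairs (log2 fold change −0.21 ± 0.09 SE, limma adjusted p = 0.193). The complexins clamp and activate the assembled SNARE complex. Cplx2 was lower in all CrT−/y animals, at 255 to 279 FPKM against 285 to 335 FPKM, without passing the test, and Cplx1 overlapped at 299 to 356 and 347 to 379 FPKM. Stx1a, the plasma membrane syntaxin, ranged from 119 to 128 and from 105 to 139 FPKM, and Stxbp5, the inhibitor tomosyn, from 23.5 to 25.3 and from 22.8 to 24.7 FPKM.

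The synaptotagmins, the calcium sensors and regulators of release, were not called by limma (0 of 5; 1 at an unadjusted p under 0.05). Syt1, the sensor for fast release, read 515, 499, 518 and 532 FPKM in CrT−/y and 542, 500 and 544 FPKM in CrT+/y animals. The ranges overlapped (log2 fold change −0.03 ± 0.06 SE, limma adjusted p = 0.764), with a 95% interval from −0.17 to 0.10, and the sign turned in 5 of 21 alternatives. Syt4, which lacks full calcium binding, read 76.6, 80.0, 79.8 and 83.1 FPKM against 87.6, 85.6 and 85.9 FPKM. Its groups were separate by a small margin (log2 fold change −0.11 ± 0.05 SE, limma adjusted p = 0.193; 0.00 with pan-neuronal scaling). Syt5, Syt7 and Syt11 overlapped, at 79.3 to 89.9, 55.8 to 59.2 and 223 to 230 FPKM in CrT−/y and 82.5 to 89.4, 53.5 to 58.2 and 220 to 229 FPKM in CrT+/y animals.

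Vesicle membrane proteins showed the opposite balance of estimates, 2 below and 5 above 0 of 7 genes, and limma called 0 (0 at an unadjusted p under 0.05). Under the 5 scaling and length alternatives 0 to 2 of the 7 were below 0. Synaptophysin, Syp, a cholesterol-binding vesicle protein, read 603, 561, 579 and 595 FPKM in CrT−/y and 700, 587 and 597 FPKM in CrT+/y animals. Only CrT+/y animal 1 stood clear of the rest (log2 fold change −0.10 ± 0.08 SE, limma adjusted p = 0.439; 0.02 with pan-neuronal scaling). Its relative Synpr read 64.3, 68.7, 59.8 and 60.6 FPKM in CrT−/y and 54.8, 61.0 and 59.1 FPKM in CrT+/y animals, with overlap (log2 fold change 0.12 ± 0.07 SE, limma adjusted p = 0.288). Syngr1 and Syngr3, the synaptogyrins, ranged from 159 to 175 and from 87.9 to 97.2 FPKM in CrT−/y, inside the CrT+/y ranges of 144 to 177 and 79.4 to 97.6 FPKM.

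SV2 proteins are vesicle glycoproteins shaped like transporters. Sv2c read 9.20, 9.04, 7.90 and 8.16 FPKM in CrT−/y and 4.94, 10.6 and 7.14 FPKM in CrT+/y animals. The controls enclosed all CrT−/y values (log2 fold change 0.24 ± 0.21 SE, limma adjusted p = 0.495), and the estimate was −0.02 without CrT+/y animal 1. The summed FPKM of 6 striatal markers was 272, 327, 171 and 132 in CrT−/y and 75.2, 284 and 144 in CrT+/y animals, so that CrT+/y animal 1 was lowest on both measures. The part of adjoining striatal tissue in the Sv2c values was not tested. Sv2a ranged from 148 to 153 and from 138 to 157 FPKM.

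Sv2b served with Pgk1 as a reference gene for quantitative PCR in the study, so its level was examined by itself. It read 130, 133, 134 and 147 FPKM in CrT−/y and 138, 132 and 150 FPKM in CrT+/y animals. The groups overlapped and the means were 136 ± 7.59 (SD, n = 4) and 140 ± 9.29 (SD, n = 3) FPKM. Pgk1, which encodes a glycolytic kinase, ranged from 221 to 237 FPKM in CrT−/y and from 198 to 242 FPKM in CrT+/y animals. The primers, shown because they place the assay on the gene, were:
Forward: agcatgtcactggccatcaa
Reverse: cccaatccctatgcctgagat
The forward primer lay in exon 3 at chr7:75157347-75157366 and the reverse primer crossed the junction of exons 3 and 4, between positions 75156752 and 75157282 (GRCm38, minus-strand gene, GENCODE M21), in the coding sequence of 3 of the transcripts. The product was 105 bases, and both primers matched 5 transcripts of 1 gene.

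NSF and its adaptors pull spent SNARE complexes apart with ATP, and limma called 0 of the 3 genes (0 at an unadjusted p under 0.05). Nsf read 275, 282, 285 and 290 FPKM in CrT−/y and 310, 292 and 303 FPKM in CrT+/y animals. The groups were separate by a narrow gap (log2 fold change −0.09 ± 0.05 SE, limma adjusted p = 0.312; 0.03 with pan-neuronal scaling). The adaptors Napa, from 93.2 to 98.3 and from 89.7 to 103 FPKM, and Napb, from 180 to 189 and from 179 to 184 FPKM, overlapped.

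Transcript length was set beside the calls. In the transcript models used, the 42 genes had a median length of 4036 bases and all tested genes 3086. Among genes of 6000 bases or longer the median log2 fold change was −0.07 over all 1674 tested genes, of which 8.72% were called lower, and −0.18 over the 12 members, of which 5 were called lower. Those 5 were the active zone genes Rims1, Rims3, Bsn, Pclo and Erc1. Of the 17 members of 2000 to 4000 bases, 2 were called lower (Syn1 and Sh3gl2; 7.59% of all genes of that length). None of the 9 members of 4000 to 6000 bases was called lower (8.11% of all genes, members' median 0.02), and none of the 4 under 2000 bases (5.22%). These bins hold too few members to show how their calls vary with length. Over all tested genes the median log2 fold change was 0.02 under 2000 bases. It was −0.03, −0.05 and −0.07 in the successively longer bins.

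After a smooth correction for length, all 7 estimates stayed below 0. Erc1 (log2 fold change −0.27, limma adjusted p = 0.0836) and Sh3gl2 (−0.24, adjusted p = 0.0754) were still called, as was Rab3b on the higher side (0.29, adjusted p = 0.0388). Pclo (adjusted p = 0.103), Syn1 (0.114), Rims3 (0.145), Rims1 (0.182) and Bsn (0.42) were not, and the part of length in their values was not tested further. Over all 21 alternatives the limma adjusted p ranged from 0.0166 to 0.206 for Erc1, from 0.0335 to 0.177 for Sh3gl2, from 0.018 to 0.144 for Rab3b, from 0.0095 to 0.276 for Pclo, from 0.0193 to 0.219 for Syn1, from 0.0447 to 0.162 for Rims3, from 0.0354 to 0.276 for Rims1 and from 0.0612 to 0.491 for Bsn.

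**Figure D4:**
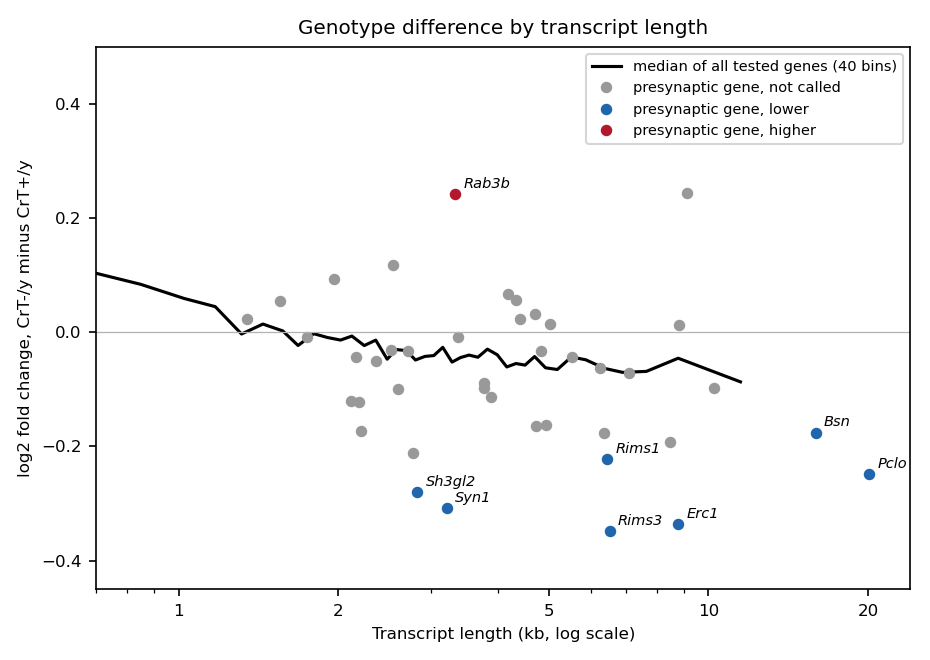
Log2 fold change (CrT−/y minus CrT+/y) against transcript length (kb, log axis) for the 42 genes (points, coloured by call), with the median of all tested genes in 40 equally filled length bins as a black line. The line slopes from above 0 for short to below 0 for long transcripts, and the 7 blue points, of 2822 to 20084 bases, lie under it.

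A wider list of 65 presynaptic genes outside the set showed 8 called lower and 2 higher (12.3% and 3.08%). Over all tested genes the shares were 7.25% and 2.90%, so the share of higher calls was near that of all genes. Estimates were below 0 for 45 of 65 (69.2%, against 58.2% of all tested genes), with a median log2 fold change of −0.05 against −0.03. Of 21 further endocytosis genes, 4 were called lower (19.0%, against 7.25% of all tested genes) and 0 higher. Synj2, the second synaptojanin, read 21.9, 19.0, 21.8 and 18.7 FPKM in CrT−/y and 28.7, 27.1 and 29.8 FPKM in CrT+/y animals (log2 fold change −0.49 ± 0.08 SE, limma adjusted p = 0.0253). The clathrin-coat partners Itsn1 (21.4, 19.0, 20.3 and 21.4 against 28.1, 28.6 and 24.1 FPKM; adjusted p = 0.0371, limma) and Eps15 (73.5, 66.4, 71.4 and 64.3 against 98.8, 85.9 and 84.2 FPKM; adjusted p = 0.0371, limma) were likewise lower without overlap. So was Snap91, which encodes the clathrin adaptor AP180, at 119, 116, 122 and 122 against 147, 140 and 139 FPKM (log2 fold change −0.24 ± 0.05 SE, limma adjusted p = 0.0398).

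Among the other SNARE and fusion genes Prrt2, a negative regulator of SNARE assembly, was called lower (129, 120, 124 and 125 against 187, 161 and 140 FPKM; limma adjusted p = 0.0549). Of the other 9 active zone genes 2 were called lower (22.2%, against 7.25% of all tested genes), Rimbp2 and Lin7a. Of 14 other vesicle proteins 0 were called, 2 of which had an unadjusted p under 0.05. Of 12 other synaptotagmins and calcium sensors 0 were called lower and 2 higher (16.7%, against 2.90% of all tested genes). These were Doc2a, a high-affinity calcium sensor for spontaneous and asynchronous release (19.5, 24.5, 21.5 and 21.6 against 16.7, 15.2 and 18.9 FPKM; limma adjusted p = 0.0659), and Syt10, at 4.20 to 4.91 against 3.55 to 3.65 FPKM (limma adjusted p = 0.0868).

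Markers of the cells and regions a cortical block can hold moved as follows. For reference, 7.25% of all tested genes were called lower and 2.90% higher, and the marker lists are short. Of 12 pan-neuronal markers 3 were called lower (25.0%) and 0 higher. Their median log2 deviation was −0.08 to −0.03 in CrT−/y and 0.01 to 0.12 in CrT+/y animals, without overlap. The median over all tested genes did not overlap either, at −0.018 to −0.007 and 0.013 to 0.035. The summed FPKM of the pan-neuronal markers overlapped (2230 to 2439 and 2247 to 2436). Of 7 excitatory markers 2 were called lower (28.6%), and of 8 inhibitory markers 0 lower and 1 higher (12.5%). Of 6 astrocyte, 6 oligodendrocyte, 3 precursor and 6 microglia markers limma called 0 (2 at an unadjusted p under 0.05), and of 5 endothelial markers 2 were called lower. The oligodendrocyte sum was 854 FPKM in CrT−/y animal 3 and 1186 to 1557 FPKM in the others. No marker was at 0 in any animal.

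Signals of neighbouring tissue varied between animals. Choroid plexus and ependymal markers summed to 394 FPKM in CrT+/y animal 2 and to 7.58 to 53.8 FPKM in the others. Olfactory bulb markers summed to 5.95 to 16.3 FPKM in CrT−/y and 2.91 to 5.24 FPKM in CrT+/y animals. The olfactory bulb sums did not overlap between genotypes and differed in the same direction as Rab3b. No choroid plexus, striatal, hippocampal or thalamic marker was called (1 at an unadjusted p under 0.05). Of the 2 tested olfactory bulb markers 1 was called higher, beside 2.90% of all tested genes. The part of regional composition in the values of Rab3b and the other members was not tested.

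**Figure D5:**
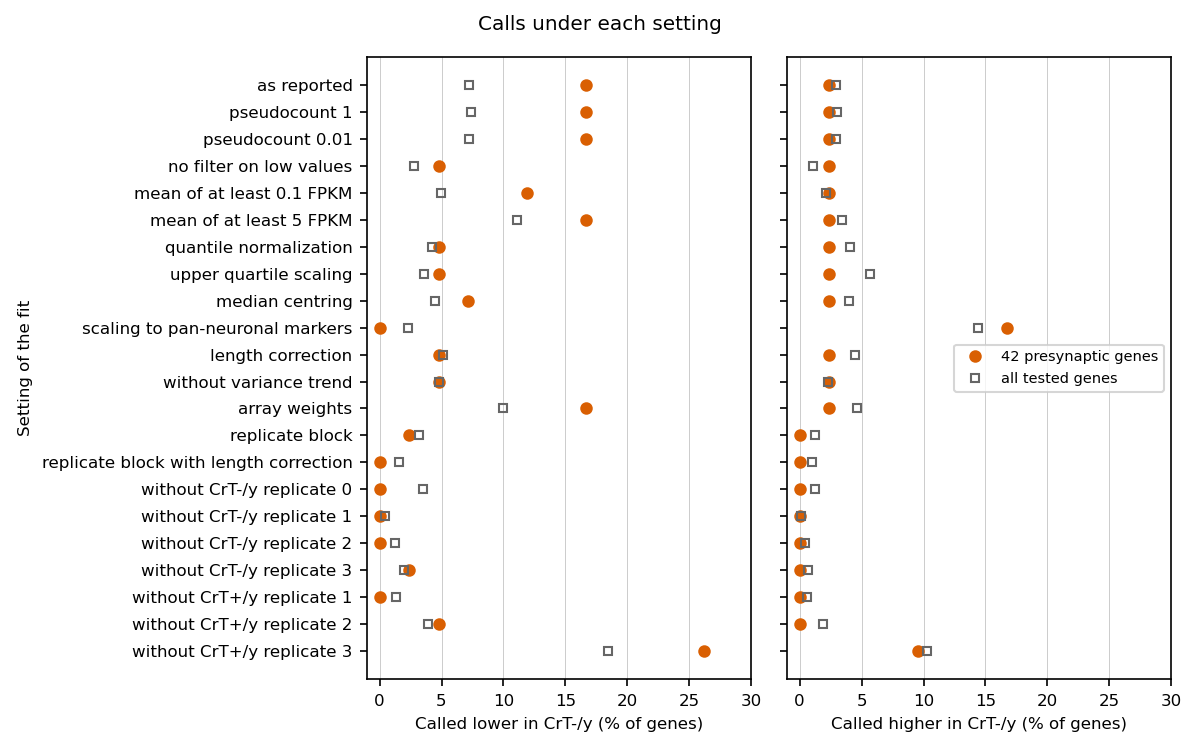
Percentage of the 42 presynaptic genes (orange) and of all tested genes (grey squares) called lower (left) or higher (right) in CrT−/y animals under the reported setting and 21 alternatives. Members called lower range from 0% to 26.2%, and with scaling to pan-neuronal markers the calls change side, to 16.7% of members called higher.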

How the data were processed

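Total RNA of the cerebral cortex was sequenced by the authors, 1 library per animal, in 4 CrT−/y and 3 CrT+/y mice. The authors mapped the paired reads to mm10 and its transcripts with the Tuxedo tools (Bowtie and Cuffnorm, per the submitters' processing notes), kept uniquely placed reads with few mismatches, so that reads shared by close paralogs were dropped, and deposited FPKM values per gene; tool versions are not given in the sources used here. FPKM are already scaled to transcript length and mapped reads and hold no counts, so no count model was used and the number of reads behind a value is not known from the table; the read totals that the study states are not used here. Because they are relative, a shift in a few abundant genes moves all others.

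Groups followed the sample labels. Values were analysed as log2(FPKM + 0.1) for the 12988 genes whose mean reached 1 FPKM, with limma 3.58.1 (R 4.3.3; linear model on genotype, variance trend, Benjamini-Hochberg adjustment over all genes), and called at an adjusted p-value under 0.1. Fold changes on this scale understate those of low genes. On simulated data with 200 changed genes of 12988, this comparison recovered 20% of log2 changes of 0.3, 82.5% of 0.6 and 93.5% of 1. In the measured data 941 genes were called lower and 377 higher, so these rates need not hold there. Tables were made in Python 3.11.15 with numpy 2.4.6, scipy 1.17.1 and pandas 2.3.3. Transcript lengths came from GENCODE M21, matched by symbol (23310 genes) or synonym (673).

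The 42 genes, the related and marker lists, the tests and the alternatives were chosen with earlier results of these data known. Values in every animal were given for called members, the member with the smallest p and the one with the highest mean FPKM of each role, the 5 uncalled members with the largest absolute log2 fold change, and the called related genes with the smallest p, up to 5 in each direction. Outside this rule, Sv2b and Pgk1 were added for their use in the study, and Rimbp2 and Lin7a were named after their values were seen. Not every called related gene is reported here. The 21 alternatives changed the pseudocount, the filter, the scaling, a length correction, the variance model, a replicate block, and left out each animal in turn.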

Additional observations from a re-analysis of the deposited data

Results flagged for a closer look

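Of 43 genes examined for an animal far from the rest of the 4 CrT−/y animals (Dixon's criterion at 95%, which chance meets in about 1 of 20 groups), 2 were picked out. Stx1a was highest in CrT−/y animal 3, at 127.975 FPKM, with the other 3 animals between 119.01 and 119.254 FPKM. Synj1 was highest in CrT−/y animal 2, at 94.7457 FPKM, with the other 3 between 86.8978 and 87.1177 FPKM. The CrT+/y animals ranged from 105 to 139 FPKM for Stx1a and from 90.7 to 97.0 FPKM for Synj1, so both values lay inside the control range. The CrT+/y group of 3 animals is too small for this criterion.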

How the results depend on the processing

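The number of genes called lower was 7 with another pseudocount, a filter at 5 FPKM or array weights, and 5 with a filter at 0.1 FPKM; it was 2 with no filter, quantile normalization, upper quartile scaling, length correction or no variance trend, 3 with median centring and 0 with scaling to pan-neuronal markers, where 7 were called higher. The median log2 fold change of the 42 genes was −0.07 as reported, −0.0169 after quantile normalization, −0.0047 with upper quartile scaling, −0.0312 with median centring, −0.0212 with length correction and 0.0505 with pan-neuronal scaling. Leaving out 1 animal gave 0 to 11 genes called lower, 0 to 4 called higher and a median from −0.102 to −0.0597. The cause of these shifts was not tested.

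CrT−/y and CrT+/y animals share the numbers 1 to 3, and the sample labels do not say that these pair animals. Deviations of animals with the same number correlated at −0.08, 0.05 and −0.05, and those with different numbers at −0.20 to 0.25. With so few animals these values cannot show or exclude pairing. The study drew both genotypes from the same litters, but which animals were littermates is not given. The reported fit used no pairing. With a replicate block on them 1 gene was called lower (Rims3) and 0 higher, and 410 lower and 166 higher of all genes instead of 941 and 377; with the replicate block and the length correction together 0 were called in either direction and the median was −0.0218.

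All 8 called genes kept their sign in the 21 alternatives and were called in 5 to 13 of them. Among all 42 genes the sign turned for 5 with quantile normalization, 8 with upper quartile scaling, 5 with median centring, 7 with length correction and 15 with pan-neuronal scaling. Of the genes whose fold changes are given, it turned for Snap25 with quantile normalization (0.0229), for Syt1 with upper quartile scaling (0.0294), median centring (0.0027), length correction (0.0234) and the replicate block with length correction (0.0246), and with pan-neuronal scaling for Syt1 (0.0845), Syt4 (0.0046), Syp (0.0181), Unc13a (0.0194), Dnm1 (0.0191) and Nsf (0.0277). Sv2c ranged from −0.0247 to 0.520 with 1 animal left out. With 3 and 4 animals, and 20% of simulated log2 changes of 0.3 recovered, changes of the size seen here would mostly be missed, so an uncalled gene is not shown to be equal.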
